A study of Mus musculus with 24 samples.

Results

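The proteasome subunits of cultured mouse muscle were examined in 24 RNA-seq libraries, as the genes whose names begin with Psm, 1 letter from a to g and a digit. Of the 56941 genes in the deposited tables, 51 had such a name once the 5 names ending in -ps, which mark pseudogene copies, were set aside, and 47 of these reached a mean of 1 TPM (transcripts per 1000000) over the 24 libraries. The 47 members comprised 14 core subunits, 17 regulatory subunits, 4 immune subunits or activators, 7 assembly chaperones, 3 other activators or inhibitors and 2 genes that share the name pattern without being subunits. Libraries came from C2C12 cells, an immortalized mouse myoblast line, that carried the blue light-gated channel ChR2 fused to the red protein tdTomato and had been differentiated into contractile muscle sheets on fibrin gel. Sheets were illuminated for 30 min a day at 1 Hz, 4 Hz or 10 Hz, or were left without light (control), with 6 libraries in each of the 4 conditions. The comparison asked how the frequency of light-driven contraction changes the transcripts of the muscle cell.

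All 4 conditions shared the cell line, the channel, the gel, the horse serum and IGF-1 of the differentiation medium and about 2 weeks of differentiation, and their labels differ by light alone. The study describes the 6 samples of a condition as biological replicates grown in multi-well plates, and the labels number them, so the p-values measure the spread between these cultures of 1 engineered line. The study also describes spontaneous twitch of the sheets in every condition, so the control muscle was unlit but not at rest. These are bulk libraries, in which fewer cells of a type and less RNA per cell cannot be told apart.

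The proteasome is the barrel-shaped protease that breaks down proteins tagged with ubiquitin. Its 20S core stacks 2 outer rings of alpha subunits, which form the gate, on 2 inner rings of beta subunits, of which Psmb5, Psmb6 and Psmb7 carry the cutting sites. The 19S regulatory particle caps the core, with a ring of ATPases (Psmc genes) that unfolds substrates and non-ATPase subunits (Psmd genes) that bind and trim ubiquitin. In muscle, the ubiquitin-proteasome system removes sarcomere proteins and is known for its role in wasting. Interferon-induced immune subunits can take the place of the constitutive cutting subunits, and the transcription factor Nfe2l1 (NRF1) is known to raise most subunit genes together when proteasome capacity is short.

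Library totals ran from 4085578 to 15194554 estimated counts, and no pair of libraries within a condition differed by as little as sampling noise. Differentiated muscle markers were high throughout, and 8 of 8 reached 1 TPM in each condition. Their summed level was 9416 to 12059.9 TPM in control, 14333 to 18474 TPM at 1 Hz, 14534 to 20751 TPM at 4 Hz and 9893 to 15889 TPM at 10 Hz, so the control libraries did not overlap those of 1 Hz or 4 Hz. The defining macrophage markers Ptprc and Adgre1 were at or near 0, while Cd68, a lysosomal gene that other cells also express, was the 1 gene of the 4 on that list above 1 TPM (summed level 112 to 169 TPM in control, 116 to 158 TPM at 1 Hz, 86.3 to 125 TPM at 4 Hz and 96.4 to 129 TPM at 10 Hz), and 0 of 3 endothelial markers reached 1 TPM. Summed small non-coding RNAs that lack a poly(A) tail (21 of 22 listed genes found) took 96.5 to 168 CPM (counts per 1000000) in control, 14.6 to 69.6 at 1 Hz, 18.5 to 50.04 at 4 Hz and 36.97 to 272 at 10 Hz. The labels state that low-input samples were depleted of ribosomal RNA in place of poly(A) selection without naming them, and this share separates control from 1 Hz and 4 Hz without overlap but not 1 Hz from 4 Hz.

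In control muscle, the levels of the subunits were compared on the TPM scale, which corrects for transcript length. Core subunits ran from 181 ± 17.5 TPM (SD, n = 6) for Psma2 to 548 ± 67.05 TPM for Psma3, a 3.03-fold range, with a median over the 14 genes of 383 TPM. The leading genes, Psma3, Psmb3, Psmb4, Psma7 and Psmb6, each differed from the next in the order by less than 1 SD. Regulatory subunits ran from 154 ± 8.06 TPM for Psmd1, the largest scaffold of the base of the particle, to 482 ± 42.3 TPM for the ATPase Psmc1. Assembly chaperones, which bind only during construction, lay lower, from 36.8 ± 2.23 TPM for Psmg3 to 68.9 ± 14.8 TPM for Psmd5. Of the alternative caps, Psme3 was at 105 ± 13.9 TPM and Psme4, within the range of the chaperones, at 57.5 ± 4.70 TPM, and the immune members were low, from 8.20 ± 1.34 TPM for Psme2b to 89.2 ± 11.7 TPM for Psme2.

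Each comparison was tested for all 13318 genes that passed the count filter, by edgeR's quasi-likelihood test with Benjamini-Hochberg adjustment, and a gene was called at an adjusted p below 0.05. All 47 members passed the filter. At 1 Hz against control, 23 members fell and 1 rose, where 17.3% of all genes tested were called lower and 18.1% higher. The median member changed by -0.23 on the log2 scale, against -0.01 over all genes. At 4 Hz against control, 11 members fell (20.2% of all genes lower) and 5 rose (19.2% higher), shares near or below those of all genes, with a member median of -0.03 against -0.01. Scaled by total count alone, which moved the median of all genes to -0.11 in this comparison, 17 members fell and 2 rose. The count of 5 was 3 without control replicate 2, and the count of 11 was 7 without control replicate 1, 2 or 5 or 4 Hz replicate 4 and 6 without 4 Hz replicate 3. At 10 Hz against control, 2 members rose (2.67% of all genes higher) and 0 fell (2.22% lower), with a member median of 0.14. At an unadjusted p below 0.05, 13 were higher and 1 lower, and with DESeq2 3 rose and 0 fell. The count of 2 at 10 Hz was 0 without control replicate 2, 5 or 6 or 10 Hz replicate 1 or 4, and 1 without control replicate 1, 3 or 4, 4 Hz replicate 4 or 10 Hz replicate 2 or 6.

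Between stimulated conditions, the members called were higher at the higher frequency in all but 1 case, Psmg4 at 10 Hz against 4 Hz. At 10 Hz against 1 Hz, 35 of the 47 members rose and 0 fell, where 17.7% of all genes were called higher and 18.5% lower, with a member median of 0.35 against 0.01. At 4 Hz against 1 Hz, 17 rose and 0 fell (5.71% of all genes higher, 6.56% lower), with a member median of 0.22. At 10 Hz against 4 Hz, 13 rose and 1 fell (10.9% higher, 11.9% lower), with a member median of 0.17. The count of 13 was 8 without 4 Hz replicate 3 or 10 Hz replicate 2 and 7 without 4 Hz replicate 6 or 10 Hz replicate 1. At an unadjusted p below 0.05, 0 members were lower at 10 Hz than at 1 Hz and 1 at 4 Hz than at 1 Hz, and DESeq2 called 0 lower in each. The 3 comparisons with control share its 6 libraries and each condition enters 3 comparisons, so the 6 sets of values are not independent.

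Members whose groups of libraries did not overlap were counted in the same libraries, so these counts are not independent of the calls. Every library at 10 Hz lay above every library at 1 Hz for 19 members (5.67% of all genes) and below for 0 (7.49%). Every library at 1 Hz lay below all of control for 8 members (5.86%) and above for 0 (7.22%). Against control, 4 Hz lay above for 2 (8.68%) and below for 2 (7.93%), each a smaller share than that of all genes. Every library at 10 Hz lay above control for 1, Psme2 (1.28%), and below for 0 (1.3%). Over 1 Hz, 4 Hz lay above for 6 (2.37%) and below for 0 (3.33%), and over 4 Hz, 10 Hz lay above for 3 (2.67%) and below for 0 (3.54%).

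Most changes were small. Where a log2 fold change beyond 0.5 was asked as well as the adjusted p, 2 members fell and 1 rose at 1 Hz against control (8.99% and 9.34% of all genes), 1 fell and 1 rose at 4 Hz (9.61% and 10.5%), and 0 were called at 10 Hz (0.623% and 1.24%). By the same rule, 9 rose and 0 fell at 10 Hz against 1 Hz (9.45% and 8.49%), 0 were called at 4 Hz against 1 Hz (1.59% higher and 1.4% lower), and 0 at 10 Hz against 4 Hz (5.32% and 5.64%). Members therefore passed this stricter rule at shares below or near those of all genes, other than the 9 at 10 Hz against 1 Hz.

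**Figure D1:**
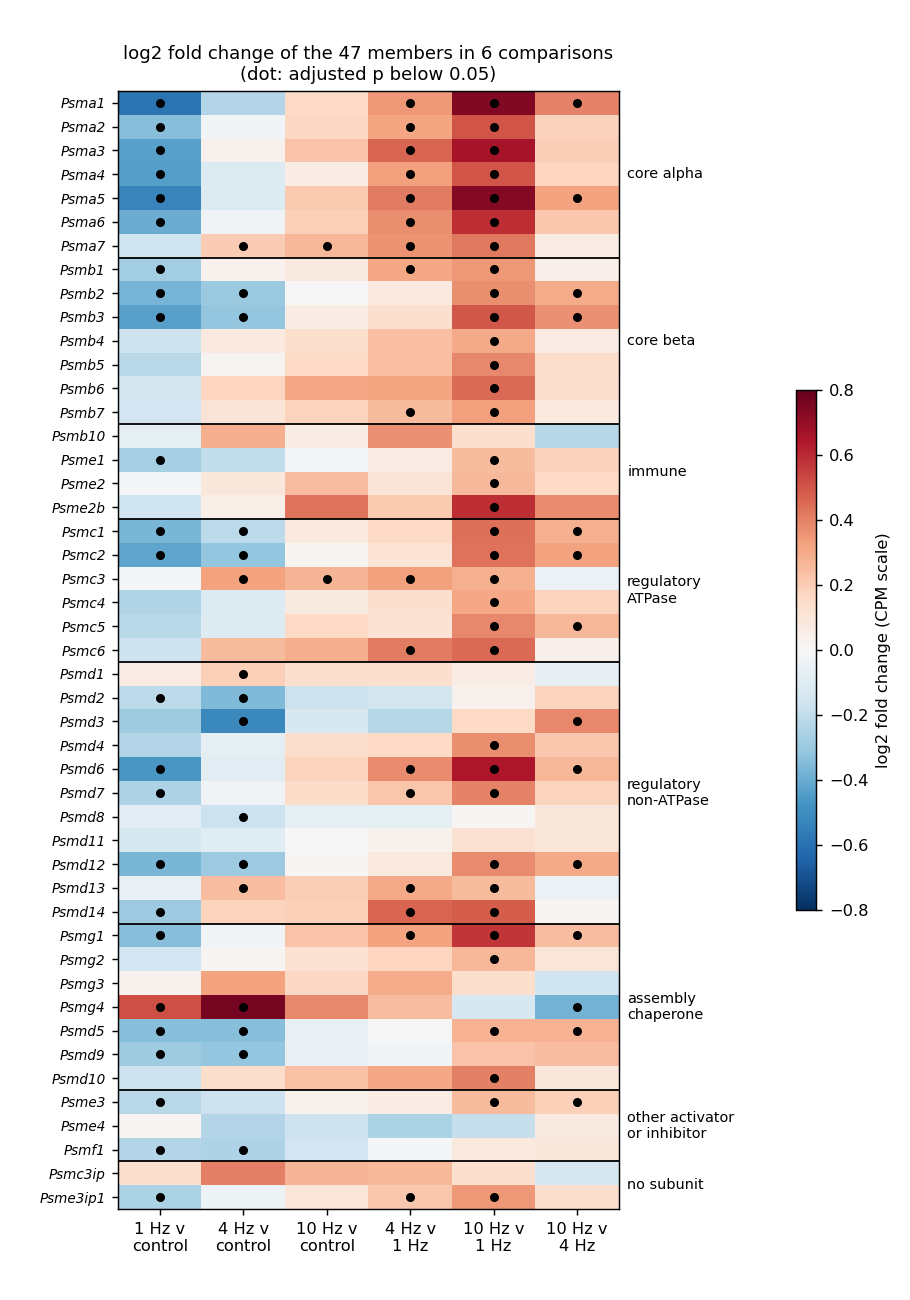
Heat map of the log2 fold change of each of the 47 members (rows, grouped by class) in the 6 comparisons (columns), from the edgeR fit on the CPM scale, with a dot where the adjusted p was below 0.05. Blue (lower) prevails in the first column, where 23 members fell at 1 Hz, and red (higher) in the fifth, where 35 rose at 10 Hz against 1 Hz, while the third column, 10 Hz against control, holds 2 dots.

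With the small RNA share of each library as a covariate in the same fit, 0 members were called at 1 Hz or at 4 Hz against control and 2 rose at 10 Hz against control (Psma7 and Psmc3, the same genes as without it). The covariate left 2 calls at 10 Hz against 1 Hz (Psma5 and Psmd6) and 0 at 10 Hz against 4 Hz. It left 18 at 4 Hz against 1 Hz, 17 of them the genes called without it. Since the share does not overlap between control and 1 Hz or 4 Hz libraries, the share and the light cannot be told apart in those comparisons. At 10 Hz the share was 36.97 to 272 CPM (median 104). It overlapped only in part with 1 Hz (14.6 to 69.6 CPM, median 19.7) and 4 Hz (18.5 to 50.04 CPM, median 23.3). The share and the light can therefore be told apart only in part at 10 Hz against 1 Hz or 4 Hz.

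Of the 8 classes, the alpha ring had the largest median change at 1 Hz. Against control, 6 of its 7 genes fell at 1 Hz (17.3% of all genes), by a median over the 7 of -0.43 on the log2 scale, 0 fell at 4 Hz (1 at an unadjusted p below 0.05) and 0 at 10 Hz (0 unadjusted). All 7 rose at 4 Hz against 1 Hz (5.71% of all genes), and all 7 rose at 10 Hz against 1 Hz (17.7%) with no overlap of libraries. At 1 Hz, the summed level of the differentiated muscle markers was higher than in control without overlap (above). Of the single markers, Ckm, Des and Myog overlapped control, and Acta1, Myh3, Tnnt3, Tnnc2 and Mylpf lay above it. The part of these markers in the difference of the alpha ring was not tested.

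Psma1 (ENSMUSG00000030751, chr7:113863679-113875409, minus strand, GRCm39), an alpha subunit of the core, had 151 to 212 CPM (median 181) in the 6 control libraries. It had 95.3 to 143 CPM (median 118) at 1 Hz, 117 to 172 CPM (median 149.6) at 4 Hz and 168 to 221 CPM (median 208) at 10 Hz. All 6 libraries at 1 Hz lay below all of control and of 10 Hz, and the 4 Hz libraries lay between and overlapped each. It fell at 1 Hz (log2 fold change -0.58 ± 0.11 (SE), adjusted p = 0.000271) and rose at 10 Hz against 1 Hz (0.74 ± 0.11, adjusted p = 1.68e-05), at 4 Hz against 1 Hz (0.35 ± 0.11, adjusted p = 0.0384) and at 10 Hz against 4 Hz (0.40 ± 0.11, adjusted p = 0.0107). The call at 4 Hz against 1 Hz was lost without 1 Hz replicate 4, 5 or 6 or 4 Hz replicate 2, 3, 4 or 5, where it was 0.29 to 0.35. Against control, its values were -0.23 at 4 Hz and 0.16 at 10 Hz, neither past the threshold.

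Psma5 (ENSMUSG00000068749, chr3:108164086-108187298, plus strand), another alpha subunit, showed the same order with less spread. Its levels were 264 to 337 CPM (median 277) in control, 179 to 227 CPM (median 197) at 1 Hz, 237 to 285 CPM (median 272) at 4 Hz and 279 to 369 CPM (median 339.9) at 10 Hz. Every 1 Hz library lay below every library of the other 3 conditions. The fall at 1 Hz was log2 fold change -0.53 ± 0.08 (SE), adjusted p = 3.08e-05, and the rises against 1 Hz were 0.42 ± 0.08, adjusted p = 0.00154 at 4 Hz and 0.74 ± 0.08, adjusted p = 5.41e-07 at 10 Hz. The copy Psma5-ps held a mean of 2.45 TPM against 344 TPM for Psma5, and reads shared between the pair could have been split by the counting.

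The other alpha subunits that fell at 1 Hz were Psma4 (-0.44), Psma3 (-0.43), Psma6 (-0.40) and Psma2 (-0.34), with adjusted p from 0.000538 to 0.00433. Psma3 held 182 to 274 CPM (median 225) at 1 Hz and 329 to 393 CPM (median 339.9) at 10 Hz, groups that did not overlap, and it rose at 4 Hz against 1 Hz (0.46 ± 0.11, adjusted p = 0.00809) and at 10 Hz against 1 Hz (0.66 ± 0.11, adjusted p = 8.22e-05). Psma7, the remaining alpha subunit, had 243 to 305 CPM (median 260.1) in control and 219 to 267 CPM (median 238) at 1 Hz, which overlapped and did not pass the test (-0.16 ± 0.07, adjusted p = 0.1). It rose against control at 4 Hz (0.20 ± 0.07, adjusted p = 0.0337), where it had 291 to 328 CPM (median 309), and at 10 Hz (0.26 ± 0.07, adjusted p = 0.0375), where it had 280.3 to 361 CPM (median 327). The call at 10 Hz was lost without control replicate 2, 4, 5 or 6 or 10 Hz replicate 1, 2 or 4, where it was 0.23 to 0.26. It was also lost with total count scaling, no filter on low counts, limma at either pseudocount, centred limma and a fit of the 12 libraries compared.

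**Figure D2:**
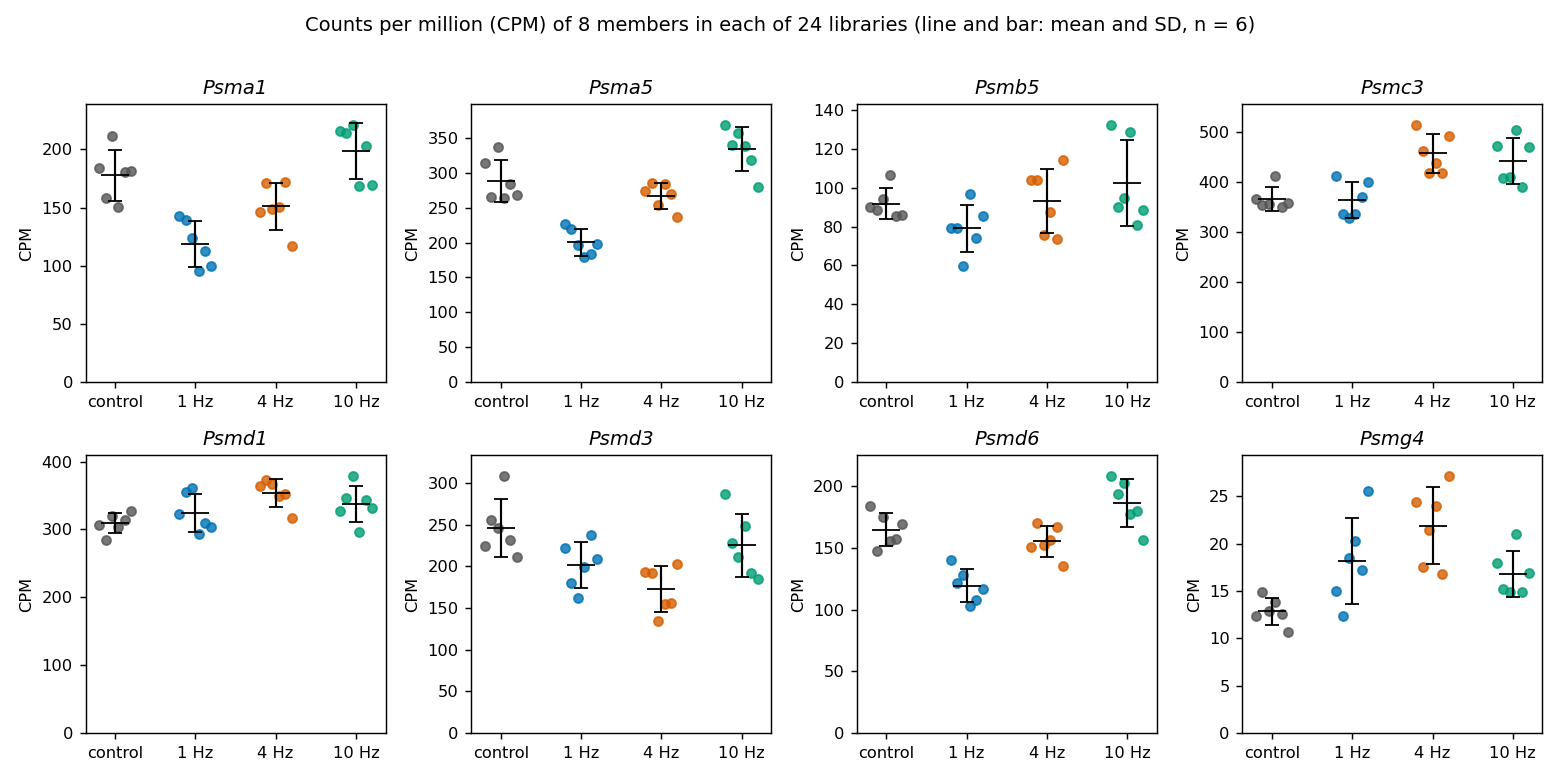
CPM (vertical axis, from 0) of 8 members in every library, by condition (horizontal axis), with the mean and SD of 6 libraries. Psma1, Psma5 and Psmd6 are lowest at 1 Hz with no overlap with control, Psmc3 is higher at 4 Hz than every control library, Psmd3 is lowest at 4 Hz, Psmg4 is lowest in control, and Psmb5 and Psmd1 overlap across all 4 conditions.

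The beta ring changed in the same direction with smaller medians. At 1 Hz against control, 3 of 7 genes fell (17.3% of all genes), with a median over the 7 of -0.22, and at 10 Hz against 1 Hz all 7 rose (17.7% of all genes), by a median of 0.37. The 3 that fell were structural subunits: Psmb3 (-0.43 ± 0.12, adjusted p = 0.00766), Psmb2 (-0.37 ± 0.08, adjusted p = 0.00096) and Psmb1 (-0.28 ± 0.06, adjusted p = 0.0015). At 4 Hz against control, Psmb3 (-0.31) and Psmb2 (-0.29) fell and the other 5 were not called. Psmb3 rose at 10 Hz against 4 Hz (0.37 ± 0.12, adjusted p = 0.0301), from 152 to 225 CPM (median 187) to 187 to 318 CPM (median 244), ranges that overlapped, and this call was lost without 4 Hz replicate 3, 4 or 5 or 10 Hz replicate 1, 2 or 4, where it was 0.27 to 0.35.

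The 3 constitutive cutting subunits were not called against control at any frequency. Psmb5 (ENSMUSG00000022193, chr14:54850776-54855481, minus strand), which carries the chymotrypsin-like site, had 85.5 to 107 CPM (median 89.2) in control, 59.8 to 96.96 CPM (median 79.2) at 1 Hz, 73.6 to 114 CPM (median 95.7) at 4 Hz and 81.02 to 132 CPM (median 92.4) at 10 Hz. The 4 groups overlapped, and 2 libraries at 10 Hz stood above the rest. Its log2 fold changes against control were -0.22 ± 0.13, adjusted p = 0.191 at 1 Hz, 0.02 ± 0.13, adjusted p = 0.917 at 4 Hz and 0.16 ± 0.13, adjusted p = 0.512 at 10 Hz. The rise at 10 Hz against 1 Hz (0.38 ± 0.13, adjusted p = 0.0216) was lost without 1 Hz replicate 3 or 10 Hz replicate 1 or 4, where it was 0.29 to 0.31. Its change at 4 Hz turned to -0.08 with total count scaling. Psmb6, which carries the caspase-like site, had 178 to 267 CPM (median 222) in control, 161 to 228 CPM (median 205) at 1 Hz, 209 to 282 CPM (median 256) at 4 Hz and 218 to 341 CPM (median 257) at 10 Hz. Psmb7, with the trypsin-like site, had 248 to 286 CPM (median 256), 217 to 259 CPM (median 233), 252 to 314 CPM (median 278) and 269.9 to 332 CPM (median 294) in the same order. Each overlapped control at every frequency, and both genes rose at 10 Hz against 1 Hz (0.46 and 0.33).

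The immune cutting subunits Psmb8 and Psmb9 were close to absent from this muscle. Psmb8, the interferon-induced counterpart of Psmb5, had between 0 and 12 estimated counts a library and a mean of 0.43 TPM. Psmb9, the counterpart of Psmb6, had at most 5 counts and a mean of 0.39 TPM. Both missed the 1 TPM minimum, as did Psmb11, of the thymus, with 7 counts over 24 libraries, and Psma8, of the testis, with 0. Zero counts in 4 libraries for Psmb8 and 5 for Psmb9 left no log ratio to their counterparts.

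Psmb10, the immune counterpart of Psmb7, was detected in every library, at 5.65 to 9.30 CPM (median 7.57) in control, 5.18 to 10.04 CPM (median 6.73) at 1 Hz, 6.26 to 12.9 CPM (median 9.28) at 4 Hz and 6.49 to 8.79 CPM (median 7.96) at 10 Hz. All 4 ranges overlapped and the gene was called in 0 of the 6 comparisons (1 at an unadjusted p below 0.05, 4 Hz against 1 Hz). Per molecule, Psmb10 stood at 3.02% to 5.48% of Psmb7 in control on the TPM scale, 2.54% to 5.37% at 1 Hz, 3.37% to 7.68% at 4 Hz and 3.77% to 4.96% at 10 Hz. The largest difference of the mean log2 ratio was 0.33, 4 Hz against 1 Hz (2-sided exact permutation test, p = 0.208, adjusted over 6 comparisons 0.597), within the spread of the libraries.

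Psme1 and Psme2 encode the subunits of the interferon-inducible PA28 cap. Psme1 had 26.3 to 33.2 CPM (median 28.03) in control, 21.5 to 26.9 CPM (median 23.5) at 1 Hz, 21.2 to 29.1 CPM (median 25.03) at 4 Hz and 25.04 to 33.2 CPM (median 27.1) at 10 Hz. All 4 ranges overlapped, and it fell at 1 Hz (-0.27 ± 0.09, adjusted p = 0.0305). Psme2 had 38.5 to 52.7 CPM (median 47.8) in control, 43.5 to 56.9 CPM (median 44.8) at 1 Hz and 44.4 to 55.5 CPM (median 49.9) at 4 Hz, and was not called at 1 Hz (-0.01 ± 0.08, adjusted p = 0.911). At 10 Hz it had 53.7 to 59.9 CPM (median 55.9), above every control library, a change that did not pass the test (0.25 ± 0.08, adjusted p = 0.0742) but did with DESeq2. Against 1 Hz, Psme1, Psme2 and the intronless copy Psme2b rose at 10 Hz, by 0.25, 0.26 and 0.59. Psme2 and Psme2b are near-identical, so the split of reads between them is uncertain.

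In the ATPase ring of the 19S particle, 2 of 6 genes fell at 1 Hz against control, where 17.3% of all genes fell, and 2 fell and 1 rose at 4 Hz (20.2% and 19.2% of all genes). Psmc3 alone was called at 10 Hz against control, where it rose (2.67% of all genes). Against 1 Hz, 6 of 6 rose at 10 Hz (17.7% of all genes), by 0.28 to 0.45. Psmc2 fell at 1 Hz (-0.42 ± 0.08, adjusted p = 0.000441) and 4 Hz (-0.31 ± 0.08, adjusted p = 0.00476), and Psmc1 fell at 1 Hz (-0.36 ± 0.08, adjusted p = 0.0015) and 4 Hz (-0.21 ± 0.08, adjusted p = 0.0489). The Psmc1 libraries at 1 Hz, 229 to 326 CPM (median 274), lay below those of control, 337 to 360.2 CPM (median 352).

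Psmc3 (ENSMUSG00000002102, chr2:90884354-90896714, plus strand), also an ATPase, had 348 to 411 CPM (median 356) in control, 328 to 412 CPM (median 352) at 1 Hz, 417 to 513 CPM (median 449) at 4 Hz and 389 to 503 CPM (median 439) at 10 Hz. The 4 Hz libraries lay above all of control, where 1 library stood apart at the top, and the 1 Hz libraries overlapped control. It rose at 4 Hz (log2 fold change 0.32 ± 0.08 (SE), adjusted p = 0.0021) and at 10 Hz (0.27 ± 0.08, adjusted p = 0.0404), and was not called at 1 Hz (-0.01 ± 0.08, adjusted p = 0.953). The call at 10 Hz was lost without control replicate 1, 2, 3, 5 or 6 or 4 Hz replicate 4 or 10 Hz replicate 1, 4 or 6, where it was 0.23 to 0.28. It was also lost with total count scaling, no filter on low counts, limma at either pseudocount and a fit of the 12 libraries compared. Slc39a13 shares 215 exonic bases with it on the opposite strand.

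Among the 11 non-ATPase subunits, 5 fell at 1 Hz against control (17.3% of all genes), 4 fell and 2 rose at 4 Hz (20.2% and 19.2%), 0 were called at 10 Hz (3 higher and 1 lower at an unadjusted p below 0.05), and 6 rose at 10 Hz against 1 Hz (17.7%). Psmd6 (ENSMUSG00000021737, chr14:8348762-8357589, plus strand), a lid subunit, had 148 to 184 CPM (median 163) in control, 103 to 139.9 CPM (median 119) at 1 Hz, 135 to 170.3 CPM (median 154) at 4 Hz and 156 to 208 CPM (median 187) at 10 Hz. All 1 Hz libraries lay below all of control and 10 Hz. It fell at 1 Hz (log2 fold change -0.47 ± 0.08 (SE), adjusted p = 0.000166) and rose at 10 Hz against 1 Hz (0.64 ± 0.08, adjusted p = 3.68e-06), where it was 1 of the 2 members still called with the small RNA covariate. Psmd14, the deubiquitinase of the lid, fell at 1 Hz (-0.29 ± 0.11, adjusted p = 0.0381) and rose at 4 Hz against 1 Hz (0.47 ± 0.11, adjusted p = 0.00565), from 101 to 154 CPM (median 139.8) to 139 to 209 CPM (median 188), which overlapped. The lid subunits Psmd12 (-0.37) and Psmd7 (-0.25) also fell at 1 Hz.

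Psmd2 and Psmd3 had their lowest medians at 4 Hz. Psmd3 (ENSMUSG00000017221, chr11:98573362-98586812, plus strand), a lid subunit, had 210.5 to 308 CPM (median 238) in control, 162 to 238 CPM (median 204) at 1 Hz, 134 to 203 CPM (median 174) at 4 Hz and 185 to 287 CPM (median 219) at 10 Hz. Every 4 Hz library lay below every control library, and the 1 Hz libraries overlapped control. The fall at 4 Hz was log2 fold change -0.51 ± 0.12 (SE), adjusted p = 0.00123, and the change at 1 Hz did not pass the test (-0.29 ± 0.12, adjusted p = 0.06). Psmd3 rose at 10 Hz against 4 Hz (0.39 ± 0.12, adjusted p = 0.0191), a call lost without 4 Hz replicate 3 or 10 Hz replicate 1, where it was 0.30 to 0.32. Psmd2, a base subunit that receives ubiquitin shuttles, had 711 to 881 CPM (median 813) in control and 549 to 715 CPM (median 593) at 4 Hz, which overlapped, and fell at 4 Hz (-0.35 ± 0.08, adjusted p = 0.00118) and at 1 Hz (-0.21 ± 0.08, adjusted p = 0.0459).

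Psmd1 (ENSMUSG00000026229, chr1:85992097-86070048, plus strand), the scaffold of the base, had 284 to 327 CPM (median 310.2) in control, 293 to 361 CPM (median 316) at 1 Hz, 317 to 373 CPM (median 358) at 4 Hz and 297 to 379 CPM (median 338) at 10 Hz, and all 4 ranges overlapped. It rose at 4 Hz against control (0.19 ± 0.07, adjusted p = 0.025), a call lost without control replicate 2 or 4 Hz replicate 2 or 3, where it was 0.18, and was not called in the other 5 comparisons. Its change at 1 Hz was 0.07, and -0.0073 with total count scaling. Psmd13, a lid subunit, rose at 4 Hz (0.24 ± 0.08, adjusted p = 0.0157). Cox8b, a subunit of cytochrome oxidase in muscle, shares 1231 exonic bases with Psmd13 on the opposite strand at a mean of 281 TPM. Of the 47 members, 15 share exonic bases with another gene of a mean of at least 1 TPM. By share of the member's exonic bases, these include Psmb7 with Nek6 (46.8%), Psme1 with Emc9 (39.6%), Psmc3ip with Mlx (38.1%) and Psme2 with Rnf31 (30.8%), all on the opposite strand. The strand setting of the counting is not given in the sources used here, and the part of such overlaps in the values was not tested.

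Of the 7 assembly chaperones, 3 fell and 1 rose at 1 Hz against control (17.3% and 18.1% of all genes), 2 fell and 1 rose at 4 Hz (20.2% and 19.2%), and 4 rose at 10 Hz against 1 Hz (17.7%). At 1 Hz against control, Psmg1 (-0.34 ± 0.09, adjusted p = 0.00609), which pairs with Psmg2 to build the alpha ring, and the base chaperones Psmd5 (-0.34 ± 0.07, adjusted p = 0.000757) and Psmd9 (-0.29 ± 0.11, adjusted p = 0.0357) fell, and Psmg4 rose. Psmd5 had 79.3 to 96.6 CPM (median 86.4) in control, 60.5 to 77.1 CPM (median 69.5) at 1 Hz, 60.8 to 76.7 CPM (median 69.7) at 4 Hz and 77.3 to 90.8 CPM (median 82.9) at 10 Hz, with 1 Hz and 4 Hz both below all of control. It fell at 4 Hz as well (-0.34 ± 0.07, adjusted p = 0.000534).

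Psmg4 (ENSMUSG00000071451, chr13:34346937-34362166, plus strand), which acts with Psmg3 in an early step of alpha-ring assembly, was the 1 member that rose at 1 Hz. It had 10.7 to 14.9 CPM (median 12.7) in control, 12.3 to 25.6 CPM (median 17.8) at 1 Hz, 16.8 to 27.1 CPM (median 22.7) at 4 Hz and 14.9 to 21.03 CPM (median 16.04) at 10 Hz. The 4 Hz libraries lay above all of control, while those of 1 Hz and 10 Hz overlapped it. It rose at 1 Hz (log2 fold change 0.51 ± 0.15 (SE), adjusted p = 0.00883) and at 4 Hz (0.76 ± 0.15, adjusted p = 0.000213), was not called at 10 Hz (0.38 ± 0.15, adjusted p = 0.132), and was the member called lower at 10 Hz against 4 Hz (-0.38 ± 0.14, adjusted p = 0.04997), at the threshold and lost without any 1 of 16 libraries, where it was -0.40 to -0.31. Its partner Psmg3 had 16.3 to 20.4 CPM (median 18.1) in control and 18.6 to 26.7 CPM (median 23.02) at 4 Hz and was not called (0.32 ± 0.14, adjusted p = 0.0713).

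Of the alternative caps, Psme3, the nuclear PA28 gamma activator, had 109.7 to 151 CPM (median 135) in control, 107 to 119 CPM (median 114) at 1 Hz, 107 to 127 CPM (median 119) at 4 Hz and 128 to 145 CPM (median 133) at 10 Hz. The 10 Hz libraries lay above all of 1 Hz and 4 Hz and overlapped control. It fell at 1 Hz (-0.22 ± 0.07, adjusted p = 0.0141), and it rose at 10 Hz against 1 Hz (0.25) and 4 Hz (0.19). Psme4, the PA200 activator, had 210.4 to 266 CPM (median 243) in control, 201 to 296 CPM (median 241) at 1 Hz, 151 to 248 CPM (median 209.8) at 4 Hz and 181 to 251 CPM (median 213) at 10 Hz. These ranges overlapped, and it was called in 0 of the 6 comparisons (2 at an unadjusted p below 0.05, those of 4 Hz with control and 1 Hz). Psmf1, an inhibitor of the core, had 34.7 to 51.3 CPM (median 45.8) in control, 35.03 to 42.4 CPM (median 39.4) at 1 Hz, 33.04 to 41.7 CPM (median 40.3) at 4 Hz and 38.9 to 45.5 CPM (median 39.99) at 10 Hz. The ranges overlapped, with 1 control library apart at the bottom, and it fell at 1 Hz (-0.23 ± 0.09, adjusted p = 0.0393) and 4 Hz (-0.24 ± 0.09, adjusted p = 0.0269). Psme3ip1, a partner of Psme3 and no subunit, fell at 1 Hz (-0.25) and rose at 10 Hz against 1 Hz (0.35). Psmc3ip, a meiotic recombination factor, was the weakest member at 0.697 to 4.35 CPM (median 2.26) in control and was not called.

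**Figure D3:**
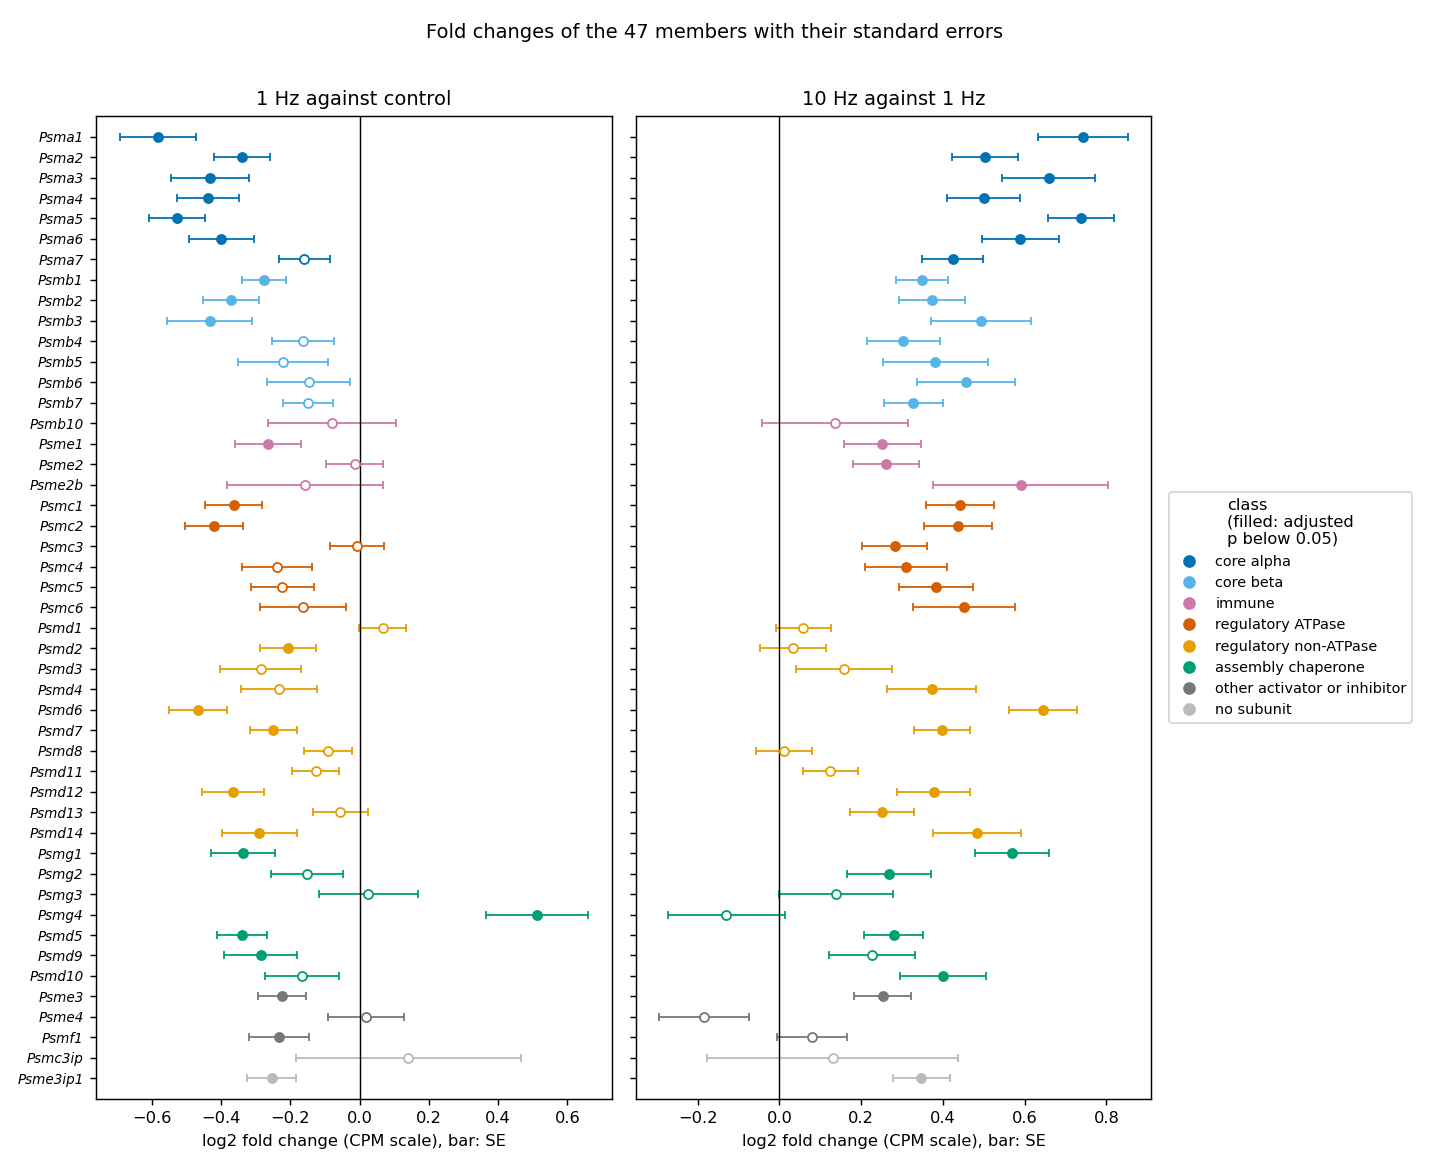
Log2 fold change of each member (horizontal axis, CPM scale, bar for the standard error) at 1 Hz against control and at 10 Hz against 1 Hz, coloured by class and filled where the adjusted p was below 0.05. Psma1 and Psma5 lie farthest to the left in the first panel and farthest to the right in the second, where the 7 alpha subunits span 0.42 to 0.74, and Psmd1, Psmd2, Psmd3, Psmd8 and Psmd11 are the non-ATPase subunits that are unfilled in the second.

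Summed over genes, the 7 alpha subunits held 2377 to 2845 TPM (median 2608) in control, 1638 to 2296 TPM (median 1868) at 1 Hz, 1864 to 2583 TPM (median 2355) at 4 Hz and 2513 to 3007 TPM (median 2840.4) at 10 Hz, with 1 Hz below control in every library. The 7 beta subunits held 2709.8 ± 185 TPM (mean ± SD, n = 6) in control, 2177 ± 187 at 1 Hz, 2341 ± 259.7 at 4 Hz and 2757 ± 339 at 10 Hz. The 17 regulatory subunits held 4722 ± 138, 3880.1 ± 342, 4027 ± 366 and 4686 ± 252 TPM in the same order. The 4 immune members together held 162 ± 10.3 TPM in control and 142 ± 10.3 TPM at 1 Hz. The TPM values of a library sum to a fixed total, so a class can shift on this scale when other genes move, and the median of all genes on the log2 scale was -0.16 at 4 Hz and -0.06 at 1 Hz against control. No test was run on these sums.

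**Figure D4:**
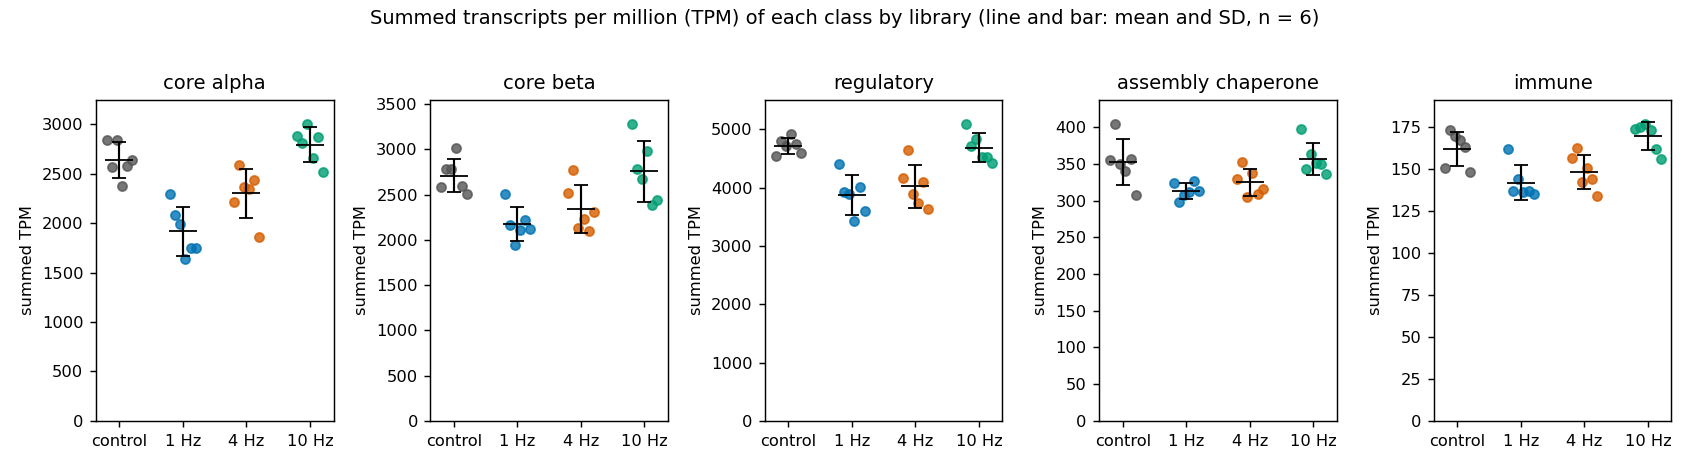
Summed TPM of the alpha core, beta core, regulatory, assembly chaperone and immune members in each library (vertical axes from 0), by condition, with the mean and SD of 6 libraries. Core and regulatory sums are lowest at 1 Hz, and those of 10 Hz overlap control in every class.

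The 6 promoter stretches printed here were chosen to show 4 of the alpha subunits that fell at 1 Hz (Psma1, Psma2, Psma4, Psma5), Psmg4, which rose, and for contrast the cutting subunit Psmb5, which was not called against control. Each holds the 150 bases before the transcription start in the RefSeq promoter table (GRCm38.p6), 5′ to 3′ on the gene's strand. Capitals mark matches, on either strand, to TGANNNNGC, letters used here for the antioxidant response element, or to the CCAAT box CCAAT. NRF1 and NRF2 are known to bind the antioxidant response element, and NF-Y the CCAAT box.
Psma1 (chr7:114276117-114276266, minus strand): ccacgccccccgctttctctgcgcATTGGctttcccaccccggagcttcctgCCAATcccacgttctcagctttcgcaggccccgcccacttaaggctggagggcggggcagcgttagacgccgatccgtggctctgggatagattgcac
Psma2 (chr13:14613092-14613241, plus strand): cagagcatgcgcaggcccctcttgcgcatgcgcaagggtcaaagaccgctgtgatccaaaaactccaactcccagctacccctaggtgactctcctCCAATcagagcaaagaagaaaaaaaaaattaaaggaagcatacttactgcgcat
Psma4 (chr9:54950709-54950858, plus strand): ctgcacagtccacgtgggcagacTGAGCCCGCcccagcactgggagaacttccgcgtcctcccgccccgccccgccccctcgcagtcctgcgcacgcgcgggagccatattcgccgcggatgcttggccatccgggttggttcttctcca
Psma5 (chr3:108256776-108256925, plus strand): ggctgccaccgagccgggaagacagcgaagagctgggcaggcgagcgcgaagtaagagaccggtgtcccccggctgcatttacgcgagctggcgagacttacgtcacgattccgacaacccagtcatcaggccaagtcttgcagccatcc
Psmb5 (chr14:54617996-54618145, minus strand): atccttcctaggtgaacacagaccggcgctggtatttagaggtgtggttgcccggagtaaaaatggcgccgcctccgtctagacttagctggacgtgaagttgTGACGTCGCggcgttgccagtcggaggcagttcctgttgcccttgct
Psmg4 (chr13:34162814-34162963, plus strand): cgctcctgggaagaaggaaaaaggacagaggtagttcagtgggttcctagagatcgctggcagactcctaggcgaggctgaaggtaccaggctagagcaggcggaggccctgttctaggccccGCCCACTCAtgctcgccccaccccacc
Psma1 and Psma2 hold CCAAT boxes here, Psma4, Psmb5 and Psmg4 hold a match to the antioxidant response element letters, and Psma5 holds neither in these bases. The table held 44 windows for 40 of the 47 members, each from 250 bases before to 50 after the start, without Psmb1, Psmb2, Psmb7, Psmc3, Psmd3, Psmd7 and Psmg2. The antioxidant response element letters were in 24 of 44 member windows, 5 of 8 of the alpha class and 4 of 4 of the beta class, against 41.3% of all 32851 windows. The CCAAT box was in 14 of 44 member windows and 5 of 8 of the alpha class, against 37.4% of all. The interferon-stimulated response element was in 5 of 44 member windows against 3.44% of all, and the gamma-activated site TTCNNNGAA in 2 of 44 against 8.3%. A match describes letters and is not evidence of binding.

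Genes that serve the proteasome from outside the name pattern were read from the same fit. Nfe2l1, the transcription factor of the subunit genes, had 530.0 to 688 CPM (median 571) in control, 739 to 876 CPM (median 824) at 1 Hz, 626 to 776 CPM (median 686) at 4 Hz and 502 to 613 CPM (median 582) at 10 Hz. It rose at 1 Hz (0.45 ± 0.08, adjusted p = 8.2e-05) and 4 Hz (0.22 ± 0.08, adjusted p = 0.0208) and fell at 10 Hz against 1 Hz (-0.52 ± 0.08, adjusted p = 1.33e-05). Of the other 3 genes of its list, its relative Nfe2l2 fell at 4 Hz (-0.26 ± 0.07, adjusted p = 0.00683), and the protease Ddi2 and the deglycosylase Ngly1, which process the NRF1 protein, were not called.

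Of 11 tested proteasome-bound and assembly factors, 6 fell and 1 rose at 1 Hz against control (17.3% and 18.1% of all genes). At 4 Hz, 5 fell and 2 rose (20.2% and 19.2%), and at 10 Hz, 0 fell and 1 rose (2.22% and 2.67%). Paaf1 did not pass the count filter. Adrm1, a ubiquitin receptor of the base, fell at 1 Hz (-0.49 ± 0.12, adjusted p = 0.00281) and 4 Hz (-0.54 ± 0.12, adjusted p = 0.00104). Akirin2, which carries proteasomes into the nucleus, fell at 1 Hz (-0.36) and 4 Hz (-0.46), as did the deubiquitinase Usp14 (-0.34 and -0.31). Pomp, the maturation factor of the core, was not called at 1 Hz (-0.04 ± 0.08, adjusted p = 0.732) and rose at 4 Hz (0.31 ± 0.08, adjusted p = 0.00253) and 10 Hz (0.26 ± 0.08, adjusted p = 0.047).

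Of 8 genes that deliver substrates, 4 fell and 1 rose at 1 Hz against control (17.3% and 18.1% of all genes). At 4 Hz, 5 fell and 1 rose (20.2% and 19.2%). The shuttle Ubqln2 fell at 1 Hz (-0.48 ± 0.10, adjusted p = 0.000674) and 4 Hz (-0.68 ± 0.10, adjusted p = 1.04e-05), and the unfoldase Vcp fell at 4 Hz (-0.40 ± 0.07, adjusted p = 8.27e-05). Among 6 genes of ubiquitin and its activation, the activating enzyme Uba1 rose at 1 Hz (0.29 ± 0.08, adjusted p = 0.00429).

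Of the 9 listed peptide loading and interferon genes, 1 rose and 1 fell at 1 Hz against control (18.1% and 17.3% of all genes). At 4 Hz, 0 rose and 1 fell (19.2% and 20.2%), and at 10 Hz, 0 were called (2.67% higher and 2.22% lower). At 1 Hz, the interferon response factor Irf1 fell (-0.58 ± 0.13, adjusted p = 0.000853) and the class I gene H2-K1 rose (0.36 ± 0.12, adjusted p = 0.0201). At 10 Hz against 1 Hz, where 17.7% of all genes were called higher and 18.5% lower, Irf1 rose (0.59) and 4 genes fell. These were the peptide transporters Tap1 (-0.79) and Tap2 (-0.45), H2-K1 (-0.39) and H2-D1 (-0.32). Psme1 and Psme2 rose in the same comparison.

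**Figure D5:**
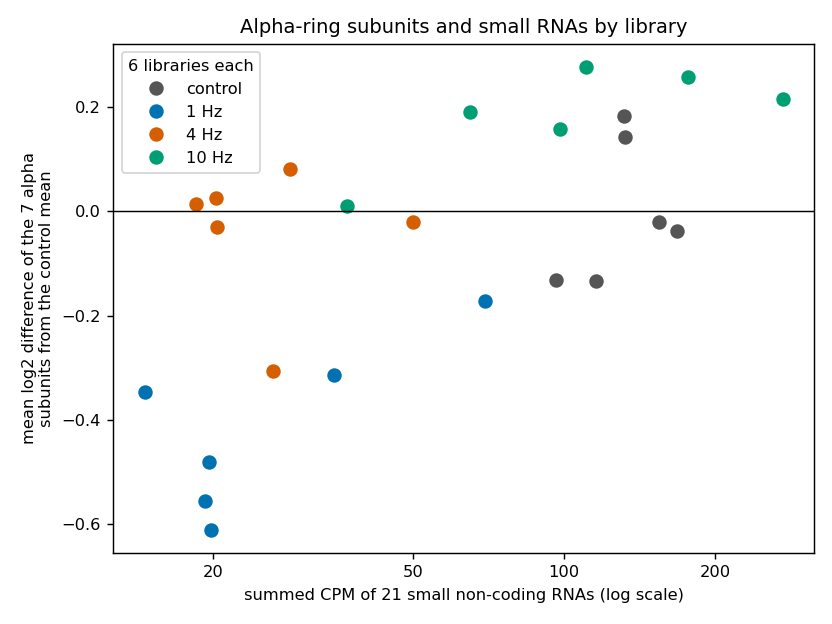
Mean log2 difference of the 7 alpha subunits from the control mean (vertical axis) against the summed CPM of 21 small non-coding RNAs (horizontal axis, log scale), 1 point per library and 6 libraries per condition. The 1 Hz libraries lie from -0.61 to -0.17 and those of 4 Hz from -0.31 to 0.08 over overlapping shares of small RNA, control from -0.13 to 0.18, and 10 Hz from 0.01 to 0.28.

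Across libraries, the mean log2 difference of the alpha subunits from control was -0.61 to -0.17 at 1 Hz and -0.31 to 0.08 at 4 Hz, where 1 library at 4 Hz reached into the 1 Hz range. At 10 Hz, it was 0.01 to 0.28, and the lowest of these libraries also had the least small RNA of its condition. Within 1 Hz, the pair of libraries with the most small RNA, 69.6 and 34.8 CPM, had the differences nearest to 0, -0.17 and -0.31. The 1 Hz library with the least, 14.6 CPM, came next, at -0.35. Within 4 Hz, the library with the most small RNA, 50.04 CPM, was at -0.02, and the library at -0.31 had 26.3 CPM. The control library with the most, 168 CPM, was at -0.04. A relation of the alpha subunits to the small RNA share within a condition was not tested.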

How the data were processed

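RNA-seq of 24 libraries (directional kit with poly(A) selection, or ribosomal depletion for low-input samples that the labels do not name, paired-end) was processed by the authors with an nf-core pipeline on GRCm39 and an Ensembl annotation, and the deposited tables hold salmon's estimated counts per gene and the authors' TPM (transcripts per 1000000). The submitters' processing notes also name STAR, BWA 0.7.12-r1039 and bedtools 2.25.0 without roles, and no source used here gives the annotation release or the strand setting. The estimated counts were rounded, since between 6.62% and 10.6% of the values of a library held decimals. All 24 libraries (totals of 4085578 to 15194554 counts) entered 1 fit in edgeR 4.0.16 (R 4.3.3) with TMM scaling, filterByExpr and the quasi-likelihood test, with Benjamini-Hochberg adjustment over 13318 genes, which held 99.8% of the counts. SE is the log2 fold change divided by the square root of F. CPM values use the scaled library sizes. The median of all genes lay within 0.1 of 0 in each comparison.

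Members and lists were chosen with earlier results of these data known. Named members were Psma1, Psmb5, Psmd1, the cutting subunits and their immune counterparts, the activators and Psmf1, and in each comparison up to 3 called members with the largest change in each direction. Other members and the pathway genes with values were named after their values were seen, and the values of some pathway genes are not reported here. The ratio of Psmb10 to Psmb7 was tested by 2-sided exact permutation over 6 against 6 libraries (smallest p 0.00216), and the ratios of Psmb8 and Psmb9 could not be computed, which left 6 tests. Alternatives were DESeq2 1.42.0, limma 3.58.1 on log2(TPM + 1) or log2(TPM + 0.1) for genes of at least 1 TPM, other scalings and filters, a replicate block, the small RNA share, the 12 libraries compared, a log2 fold rule of 0.5, and leaving out each library. On counts simulated for 1 Hz against control over 13318 genes, with a small random draw of them changed, edgeR recovered 39% of genes changed by 0.5. It recovered 85% of those changed by 1 on the log2 scale. Gene coordinates are from GENCODE M39 (GRCm39) and promoters from RefSeq (GRCm38.p6). Tables and figures used Python 3.11.15, pandas 2.3.3, scipy 1.17.1 and matplotlib 3.10.9. Within a condition, none of 60 pairs of libraries was a duplicate.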

Additional observations from a re-analysis of the deposited data

Results flagged for a closer look

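Of 108 groups of 6 libraries examined, 5 held 1 library far from the others, where chance alone marks about 1 in 20. Psmc3 was at 411 CPM in control replicate 4, against 348 to 365 CPM in the other 5 control libraries. Psmd2 was at 844 CPM in 10 Hz replicate 1, against 645 to 706 CPM. Psme2 was at 56.9 CPM in 1 Hz replicate 1, against 43.5 to 48.4 CPM, and in the same library the summed TPM of the 4 immune members was 162, against 135 to 144. Psmf1 was at 34.7 CPM in control replicate 6, against 45.2 to 51.3 CPM.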

How the results depend on the processing

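Counts of members called are given as higher and lower. At 1 Hz against control (1 and 23), they were 0 and 0 with the small RNA covariate, 14 lower with no filter on low counts, and 2 lower where a log2 fold change beyond 0.5 was also asked. At 4 Hz against control (5 and 11), they were 2 and 17 with total count scaling, 3 and 5 with no filter, 2 and 23 with limma on log2(TPM + 1) or log2(TPM + 0.1), 0 and 0 with the covariate, and 1 and 1 with the fold rule. At 10 Hz against control, the 2 higher became 0 with total count scaling, no filter, limma with either pseudocount, the 12 libraries compared or the fold rule, and 1 with limma on libraries centred on their median, an alternative chosen after seeing the data. At 4 Hz against 1 Hz (17 and 0), limma gave 4 and 2 with either pseudocount and the fold rule 0 higher. At 10 Hz against 1 Hz, the 35 became 2 with the covariate and 9 with the fold rule. At 10 Hz against 4 Hz (13 and 1), the higher count was 8 with no filter and 0 with the covariate or the fold rule, and the lower count was 0 with those 3, total count scaling, a mean of at least 5 CPM, limma, centred limma and the 12 libraries. The fold rule is stricter by construction, limma on TPM moved the median of all genes, and the cause of the other moves was not tested.

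Leaving out 1 library at a time gave 1 to 1 higher and 19 to 24 lower at 1 Hz, 3 to 6 and 6 to 11 at 4 Hz, and 0 to 2 and 0 to 0 at 10 Hz against control. It gave 12 to 18 higher at 4 Hz against 1 Hz, 29 to 35 at 10 Hz against 1 Hz, and 7 to 16 higher and 0 to 1 lower at 10 Hz against 4 Hz.

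Single values changed sign in few cases. The covariate turned Psma1 at 4 Hz against control to 0.070 on the log2 scale. Psmb5 at 4 Hz against control was -0.077 with total count scaling, -0.21 with limma at either pseudocount, -0.018 with centred limma and between -0.034 and 0.081 with 1 library left out, and at 10 Hz against control it was -0.0030 and -0.0031 with limma. Psmd1 was -0.0073 at 1 Hz against control with total count scaling, and with limma -0.0051 at 4 Hz against 1 Hz and 0.02 (0.0204 and 0.0206) at 10 Hz against 4 Hz. The log2 ratio of Psmb10 to Psmb7 from estimated counts differed by 0.032 at 1 Hz and -0.11 at 10 Hz against control and by -0.14 at 10 Hz against 1 Hz. With 1 library left out it ranged from -0.15 to 0.067, from -0.026 to 0.15 and from -0.0024 to 0.21. None of the ratios passed its test.

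Same-numbered libraries of different conditions had a median r of 0.0173, against -0.013 for other pairs, and 10 of 36 same-numbered pairs had r above 0.1. Of the 24 libraries, 10 correlated best with a library of their own number. Whether the numbers pair the libraries in part was not tested. The replicate block gave 1 higher and 26 lower at 1 Hz, 6 and 12 at 4 Hz, 3 and 0 at 10 Hz against control, 19 and 0 at 4 Hz against 1 Hz, 35 and 0 at 10 Hz against 1 Hz, and 15 and 1 at 10 Hz against 4 Hz, and it called Psma1 lower at 4 Hz (-0.24). At these depths edgeR recovered 39% of changes of 0.5 in simulated counts. The changed genes there were a small random draw from all genes tested, so this share does not give the recovery for the members.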
